A study of Mus musculus with 5 samples.

Results

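The pyruvate dehydrogenase genes examined here were 10 genes selected by symbol from a table of 17228 coding genes measured in mouse heart. They were the kinases Pdk1, Pdk2, Pdk3 and Pdk4, the phosphatases Pdp1 and Pdp2, the E1 subunits Pdha1 and Pdhb, and the pyruvate carrier subunits Mpc1 and Mpc2. All 10 were in the table, and all 10 passed the filter on low counts. Whole-heart RNA enriched for poly-A transcripts was sequenced in 5 libraries from mice aged 6 months on a standard diet. The WT group held 2 non-diabetic libraries, 1 female and 1 male. The db/db group held 3 diabetic libraries, 2 females (called female 1 and female 2) and 1 male, of the genotype KsJ-Lepr db/Lepr db. These mice lack the long form of the leptin receptor in every tissue from birth and become obese and diabetic, so the heart was not the only organ altered. The strain label was C57BL for every library, and the KsJ background was named for the db/db genotype but not for WT, so an effect of the db allele and one of the background cannot be told apart. The growth protocol described male mice, whereas 3 libraries were labelled female. The 2 WT libraries differed in sex, so any difference between the sexes is part of the WT spread. In the fit of genotype alone, it is also part of the spread that the p-values rest on. The labels do not say that db/db female 1 and female 2 came from separate animals, so the spread between this pair may be technical.

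The pyruvate dehydrogenase complex stands between glycolysis and the citric acid cycle: in the mitochondrial matrix it turns pyruvate into acetyl-CoA, and this step cannot be reversed in animal cells. Pyruvate reaches the matrix through the mitochondrial pyruvate carrier, a pair of Mpc1 and Mpc2. Pyruvate dehydrogenase kinases phosphorylate the E1 alpha subunit and switch the complex off, and pyruvate dehydrogenase phosphatases remove the phosphate and switch it on again. In the heart, which burns mainly fatty acids, Pdk4 transcription is known to rise in fasting and with fatty acid supply through PPAR receptors, while Pdk2 is present in the fed state. Only transcripts were measured here, not phosphorylation, protein or enzyme activity.

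The libraries held 8356099 to 10381326 counts, with 14685 to 15132 genes detected. Levels are given as the deposited TPM (transcripts scaled for gene length and for library size), which can be set side by side between genes. Differences between groups are given as CPM, counts scaled to library size with TMM factors, and tested as log2 fold changes of db/db over WT with edgeR's quasi-likelihood test and Benjamini-Hochberg adjustment over 12540 genes. Genes with an adjusted p under 0.05 are said to be called. A count of 0 would allow up to 3 counts, or 0.292 to 0.405 CPM depending on the library, and no member was at 0. Lepr, the gene that carries the db mutation, had 37 and 13.86 estimated counts in WT and 3, 7 and 5 in db/db. Each db/db library lay below both WT libraries, and the fit put Lepr at -2.21 on the log2 scale (SE 0.56, edgeR adjusted p = 0.106). Lepr passed in 4 alternatives, among them the fit with sex as a covariate (edgeR adjusted p = 0.0263). The genotype labels give no direction for reads summed over all forms of the gene, so these few counts do not check the labels.

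The 10 genes fell into an abundant and a scarce set. In mean TPM over the 5 libraries (± SD), the carrier subunit Mpc1 was highest at 931 ± 175, at percentile 99 of the genes in the table. Mpc2 followed at 697 ± 60.8, and Pdhb, the E1 beta subunit, at 651 ± 68.4. Mpc2 exceeded Pdhb in 4 of 5 libraries and not in the WT female, so this pair was not ordered beyond its spread. Pdk2 was the most abundant kinase at 414 ± 56.0, above the E1 alpha subunit Pdha1 at 268 ± 61.2. A wide gap separated these from Pdk4 at 46.5 ± 12.0 and Pdk1 at 22.6 ± 5.01. The phosphatases were scarcer, Pdp1 at 9.13 ± 2.11 and Pdp2 at 6.47 ± 1.39, and Pdk3 was lowest at 1.73 ± 0.820, at percentile 39.1. Apart from Mpc2 and Pdhb, each gene exceeded the next one down in 5 of 5 libraries.

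**Figure D1:**
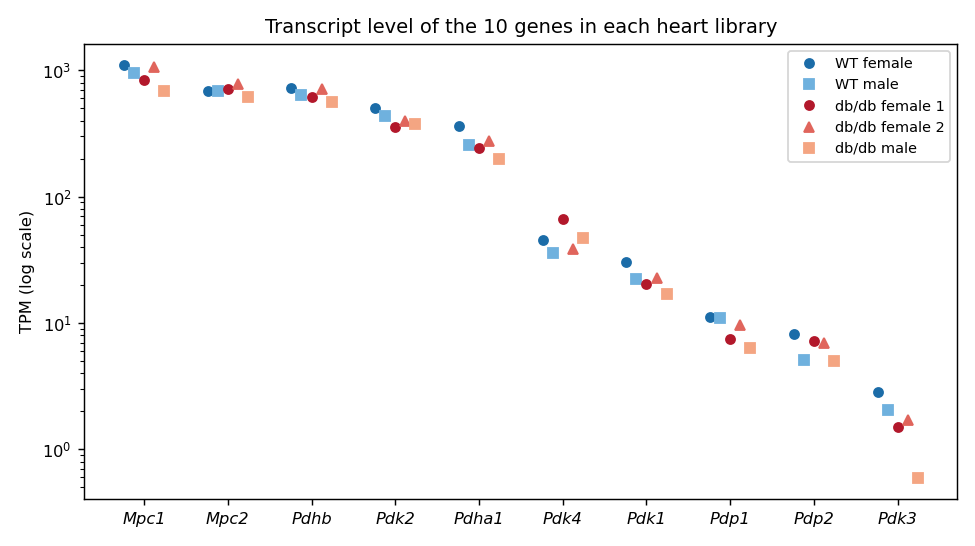
Deposited TPM (log axis) of the 10 genes, ordered by their mean from left to right, with 1 point per library; blue stands for WT and red for db/db, circles and the triangle for females and squares for males. Mpc1, Mpc2, Pdhb, Pdk2 and Pdha1 filled the upper part of the plot, and Pdk3 lay lowest, between 0.59 and 2.84 TPM.

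No member was called between db/db and WT hearts: 0 of 10 by edgeR, against 129 of 12540 genes (1.03%; 0.67% higher and 0.359% lower). Pdk4 was the 1 member with an unadjusted p under 0.05, a share near the 12.9% of all genes. DESeq2, which called 1.92% of genes, and limma-voom, which called 0.909%, also called 0 of 10, with 2 and 1 members at an unadjusted p under 0.05. The share of all genes at that unadjusted level was not taken for DESeq2 or limma-voom, so these member counts have no background beside them. The members had 5 positive and 5 negative log2 fold changes (49% of all genes were positive), and their median was -0.0004893 beside -0.00717 for all tested genes. For 8 of 10 members, all but Pdk3 and Pdk4, the 95% interval of the change lay within 2-fold up or down. In CPM, the groups did not overlap for 4 of 10 members, Pdk3 lower in db/db and Pdk4, Pdhb and Mpc2 higher, against 31.6% of all genes (15.1% higher and 16.5% lower).

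**Figure D2:**
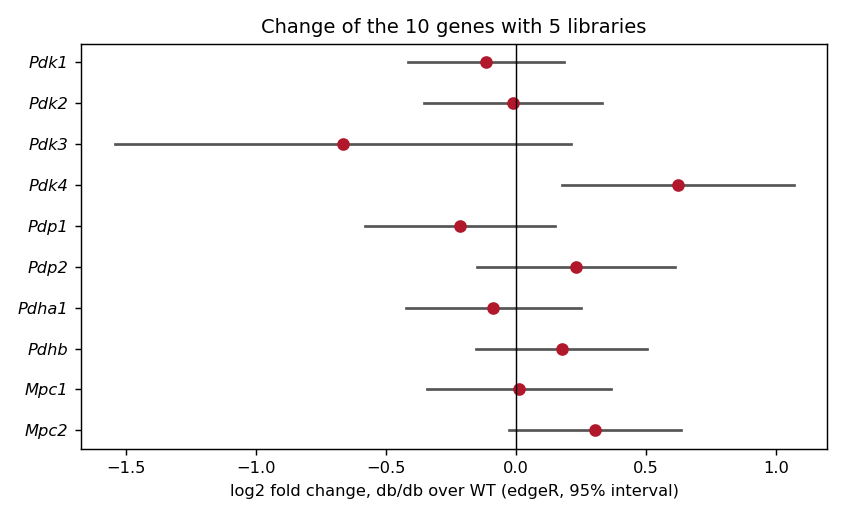
Log2 fold change of db/db over WT (points) for the 10 genes with its 95% interval from the edgeR fit to 5 libraries (horizontal lines); the vertical line marks no difference. The interval of Pdk4, from 0.18 to 1.07, was the only one of the 10 that excluded 0, and Pdk3 had the widest.

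Among the kinases, Pdk4 (gene ID 27273, GRCm38.p6 chromosome 6, 5483351 to 5496278), the isoform that responds to fasting, stood at 981 and 825 counts in the WT female and male and at 1731, 1046 and 1107 in db/db female 1, female 2 and male. In CPM these were 95.5 and 89.9 in WT and 177, 103 and 149 in db/db. All 3 db/db libraries were above both WT libraries, but female 2 lay close to WT, and female 1 exceeded female 2 by 1.72 times. Pdk4 averaged 92.7 ± 3.92 CPM over the 2 WT libraries and 143 ± 37.4 CPM over the 3 db/db libraries (± SD). The spread relative to the mean was 4.23% in WT and 26.2% in db/db. The log2 fold change was 0.62 (SE 0.20), or 1.54-fold with a 95% interval of 1.13 to 2.10, and it missed the threshold (edgeR adjusted p = 0.237). The authors' deposited table gave 0.63 with a q-value of 0.140. Of the 12540 genes, 4.34% had a p at least as small.

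The call on Pdk4 turned on 1 library. Without db/db female 2 it passed, at a log2 fold change of 0.81 (edgeR adjusted p = 0.0398), in a fit that called 1.09% of genes. Without db/db female 1 the log2 fold change was 0.44 (edgeR adjusted p = 0.502). Over 19 alternatives the log2 fold change stayed positive, between 0.30 and 0.81, and the adjusted p ran from 0.0398 to 0.778. The lowest value came from TPM, where the median of all genes was itself -0.24.

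**Figure D3:**
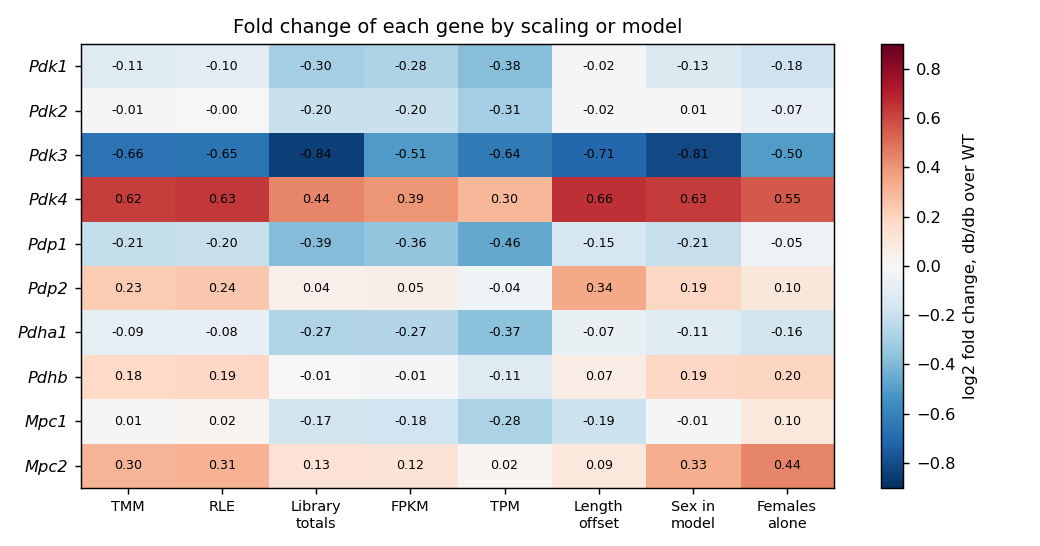
Log2 fold change of db/db over WT (colour, with the value printed) for each of the 10 genes in rows, under the main TMM fit, 4 other scalings or units, the length offset, sex in the model and females alone in columns; FPKM stands for log2(FPKM + 1) and TPM for log2(TPM + 1). Pdk4 lay above 0 in every column, from 0.30 to 0.66, and Pdk3 below 0, while Pdhb and Mpc1 turned sign under library totals, FPKM and TPM. Mpc1 also turned sign under the length offset and with sex in the model, Pdp2 under TPM, and Pdk2 with sex in the model.

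Pdk2 (gene ID 18604, chromosome 11, 95026258 to 95041371), the main kinase isoform of this tissue by level, had 683 and 713 CPM in WT and 617, 680 and 779 CPM in db/db. The db/db values spanned the WT values on both sides. Pdk2 averaged 698 ± 20.9 CPM over the WT libraries and 692 ± 81.6 CPM over the db/db libraries (± SD), with a log2 fold change of -0.01 (SE 0.16, 95% interval -0.35 to 0.33, edgeR adjusted p = 0.984). On the TPM scale its groups did not overlap, at 500.2 and 436.06 in WT and 359.37, 398.08 and 376.74 in db/db. On that scale 3 of 10 members, Pdk2, Pdk3 and Pdp1, lay lower in db/db without overlap, against 36.3% of all genes.

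Pdk1 (gene ID 228026, chromosome 2, 71873213 to 71903858), a kinase known as a target of the hypoxia factor HIF-1, had 98.0 and 85.8 CPM in WT and 81.6, 90.8 and 82.3 CPM in db/db. The groups overlapped, and the log2 fold change was -0.11 (SE 0.14, edgeR adjusted p = 0.766). Pdk3 (gene ID 236900, chromosome X, 93764616 to 93832095), a kinase best known from testis and brain, rested on few reads: 35 and 27 counts in WT and 22, 26 and 8 in db/db. The db/db male was lowest. Pdk3 averaged 3.17 ± 0.328 CPM over the WT libraries and 1.96 ± 0.776 CPM over the db/db libraries. The 95% interval of its log2 fold change of -0.66 ran from -1.54 to 0.21 (edgeR adjusted p = 0.503). A difference of 2-fold in Pdk3 was therefore not resolved with these libraries. The Pdk3 value was -0.41 without the db/db male and -0.89 without db/db female 2.

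The promoters of the most abundant kinase and of the one with the smallest p are shown to set their bases side by side. Each run is the 250 bases before the RefSeq transcription start in GRCm38.p6, read on the strand of the gene, for Pdk4 at chr6:5496279-5496528 (minus strand) and for the first start of Pdk2 at chr11:95041372-95041621 (minus strand). Capitals mark matches to the motifs searched.
Pdk4: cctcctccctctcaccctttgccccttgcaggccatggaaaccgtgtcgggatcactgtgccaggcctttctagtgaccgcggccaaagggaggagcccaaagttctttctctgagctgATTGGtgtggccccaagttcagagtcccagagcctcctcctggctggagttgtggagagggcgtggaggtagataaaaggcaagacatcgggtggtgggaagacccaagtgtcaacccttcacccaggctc
Pdk2: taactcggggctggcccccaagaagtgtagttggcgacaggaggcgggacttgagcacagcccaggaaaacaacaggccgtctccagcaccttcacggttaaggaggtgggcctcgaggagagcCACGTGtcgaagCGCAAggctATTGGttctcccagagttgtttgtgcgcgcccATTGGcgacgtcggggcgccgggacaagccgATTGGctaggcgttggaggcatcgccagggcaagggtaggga
The search used exact letters on both strands. It covered the half-site shared by PPAR, RXR and ERR receptors (AGGTCA), the ERR half-site (AAGGTCA, which overlaps the former), a FOXO site (GTAAACA) and a glucocorticoid receptor half-site (TGTTCT). It also covered an E-box (CACGTG), the CCAAT box as its name spells it, the GC box known from Sp1 sites (GGGCGG), the half-site of C/EBP factors (TTGCG) and the core promoter element known as the TATA box (spelled TATAAA). The Pdk4 window held 1 match, a CCAAT box read as ATTGG at 131 bases before the start. The Pdk2 window held an E-box at 126, a C/EBP half-site read as CGCAA at 114, and CCAAT boxes read as ATTGG at 105, 73 and 42 bases before the start. Among 32851 windows of the same length, 33.8% held a CCAAT box, 6.02% the E-box, 14.5% the C/EBP half-site, 14% the PPAR, RXR and ERR half-site, 4.08% the ERR half-site, 3.17% the FOXO site, 16.1% the glucocorticoid receptor half-site, 32.7% the GC box and 12.4% the TATA box. The windows were alike in GC content, 58.8% in Pdk4 and 62.4% in Pdk2, beside a median of 52.4% over all windows. They differed in CpG dinucleotides: observed over expected was 0.278 in Pdk4 and 0.807 in Pdk2, with a median of 0.373 over all windows. No letters found in these windows say where a factor binds.

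The make-up of the kinase transcripts was taken as each isoform's share of the summed Pdk1 to Pdk4 TPM, which does not depend on scaling between libraries. Pdk2 made up 86.4% and 87.9% in WT and 80.3%, 86.3% and 85.4% in db/db. The Pdk4 share was 7.81% and 7.16% in WT and 14.8%, 8.42% and 10.6% in db/db. Thus Pdk2 dominated in all 5 libraries, and the Pdk4 share of every db/db library lay above both WT libraries, with db/db female 2 nearest to WT. The mean Pdk4 share was 7.49 ± 0.455% (SD, n = 2) in WT and 11.3 ± 3.27% (SD, n = 3) in db/db, a difference of 3.80 percentage points. An exact two-sided permutation test over the 10 possible groupings, in which the smallest possible p is 0.1, gave p = 0.2 (adjusted p = 0.6 over 6 quantities). The Pdk2 share was 87.2 ± 1.06% in WT and 84.0 ± 3.24% in db/db (exact permutation p = 0.4, adjusted p = 0.75). Leaving out db/db female 1 reduced the difference in the Pdk4 share to 2.02 points, and leaving out female 2 raised it to 5.24. Pdk1 took between 3.86% and 5.29% of kinase transcripts, with overlapping groups (exact permutation p = 0.5, adjusted p = 0.75). Pdk3 took 0.491% and 0.413% in WT and 0.333%, 0.369% and 0.134% in db/db (exact permutation p = 0.2, adjusted p = 0.6).

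**Figure D4:**
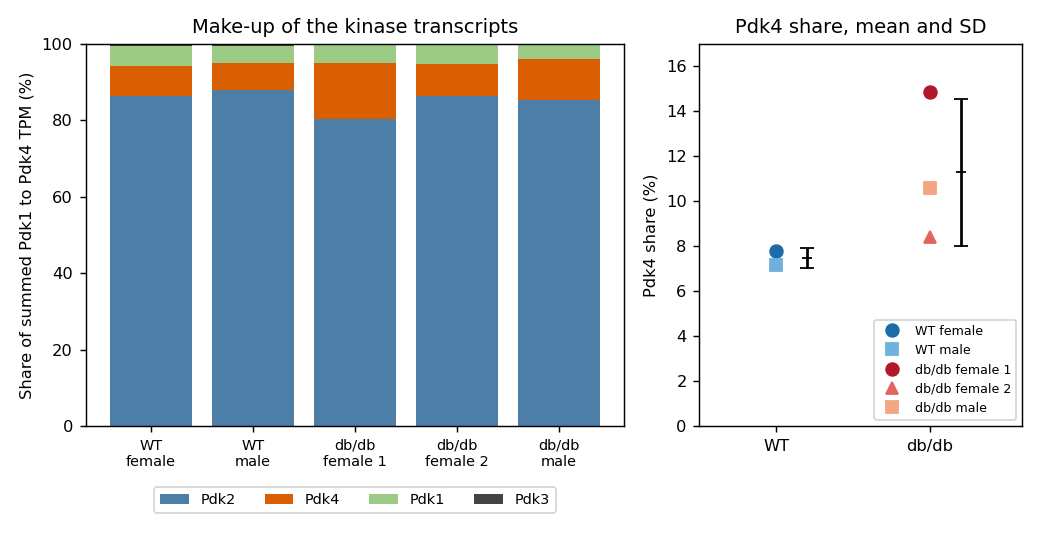
Left, share of each kinase isoform in the summed Pdk1 to Pdk4 TPM (percent), 1 bar per library; right, the Pdk4 share of each library (points) with the group mean ± SD (2 WT and 3 db/db libraries). Pdk2 filled 80.3% to 87.9% of each bar, and the Pdk4 share ran from 7.16% in the WT male to 14.8% in db/db female 1.

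The summed kinase level was 579 and 496 TPM in WT and 448, 461 and 441 TPM in db/db. The db/db values were lower without overlap on this scale, on which the median of all genes was -0.24 (log2) and 36.3% of genes lay lower without overlap, whereas in CPM the groups overlapped for Pdk2, which makes up most of the sum. Set against the summed phosphatases within each library, kinase transcripts were 29.9 and 31.0 times as abundant in WT and 30.5, 27.8 and 38.7 times in db/db. These ratios overlapped between groups (exact permutation p = 0.9, adjusted p = 0.9). Set against their substrate Pdha1, kinase transcripts stood at 1.59 and 1.93 in WT and 1.84, 1.68 and 2.23 in db/db (exact permutation p = 0.7, adjusted p = 0.84). The db/db male had the highest value of both ratios. Chosen after the values were seen and not tested, the ratio of Pdk4 to Pdk2 was 0.0903 and 0.0815 in WT and 0.185, 0.0975 and 0.124 in db/db.

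Neither phosphatase was called, and in CPM the groups overlapped for both. Pdp1 (gene ID 381511, chromosome 4, 11955525 to 11966450), the calcium-stimulated isoform known from heart and skeletal muscle, had 28.6 and 33.5 CPM in WT and 24.3, 31.0 and 24.8 CPM in db/db. The groups overlapped through db/db female 2, and the log2 fold change was -0.21 (SE 0.17, 95% interval -0.58 to 0.15, edgeR adjusted p = 0.612). Pdp2 (gene ID 382051, chromosome 8, 104591468 to 104599026), the isoform known for its response to insulin and feeding in liver and fat, had 28.4 and 21.1 CPM in WT and 31.3, 29.7 and 26.2 CPM in db/db. The WT male was lowest and the groups overlapped, with a log2 fold change of 0.23 (SE 0.17, 95% interval -0.15 to 0.61, edgeR adjusted p = 0.597). The Pdp2 value depended on the WT libraries, at 0.038 without the WT male and 0.46 without the WT female. Both phosphatases rested on 184 to 316 counts per library.

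Of the E1 subunits, Pdha1 (gene ID 18597, chromosome X, 160122219 to 160138430), which carries the sites the kinases phosphorylate, had 633 and 536 CPM in WT and 532, 598 and 520 CPM in db/db. The WT female was highest, and the log2 fold change was -0.09 (SE 0.15, 95% interval -0.42 to 0.25, edgeR adjusted p = 0.849). Pdha1 was the 1 member with counts that were not whole, so its reads were in part shared out by the authors' counting. Pdhb (gene ID 68263, chromosome 14, 8165991 to 8172992) had 637 and 668 CPM in WT and 673, 785 and 753 CPM in db/db. The groups did not overlap, but db/db female 1 exceeded the WT male by a small margin, and the log2 fold change was 0.18 (SE 0.15, 95% interval -0.15 to 0.50, edgeR adjusted p = 0.645). Under library totals, FPKM and TPM the sign of the Pdhb change turned, to between -0.11 and -0.0065 on the log2 scale. Of the runs of 50 bases in Pdhb transcripts, 10.9% also occur in transcripts of other genes, nearly all of them of the locus annotated as Gm6123. The counts of Pdhb were whole, but the counting rule for such reads is not known from the sources used, so its level is uncertain.

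The carrier subunits Mpc1 and Mpc2 form 1 heterodimer. Mpc1 (gene ID 55951, chromosome 17, 8283431 to 8297727) had 577 and 591 CPM in WT and 544, 688 and 533 CPM in db/db. The db/db values lay on both sides of WT, and the log2 fold change was 0.01 (SE 0.16, 95% interval -0.34 to 0.37, edgeR adjusted p = 0.986), with a sign that turned under 9 of 19 alternatives. Mpc1 shared 11% of its runs of 50 bases with the pseudogene Mpc1-ps, and its level is likewise uncertain. Mpc2 (gene ID 70456, chromosome 1, 165460637 to 165481214) had 332 and 396 CPM in WT and 427, 473 and 450 CPM in db/db. All 3 db/db libraries were above both WT libraries, with averages of 364 ± 44.9 and 450 ± 23.1 CPM (± SD), and the log2 fold change of 0.30 (SE 0.15, 95% interval -0.02 to 0.63) missed the threshold (edgeR adjusted p = 0.416). Among the 3 females alone, with 1 WT library, Mpc2 passed at 0.44 (edgeR adjusted p = 0.0257), in a fit that called 7.67% of genes. Without the WT female, its log2 fold change was 0.19.

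Gene length moved with the Mpc2 difference. Mpc1 and Mpc2 have the shortest transcripts of the 10, at implied lengths of 823 and 767 bases. In each library, the trend of log2 CPM with length put genes as short as Mpc2 at 0.25 (log2) in the db/db male, at -0.27 in the WT female and at 0.00 to 0.01 in the other 3 libraries. With this trend as an offset, the log2 fold change of Mpc2 was 0.09 (edgeR adjusted p = 0.802) and that of Mpc1 was -0.19. The same offset put Pdhb at 0.07 and Pdp2 at 0.34 (edgeR adjusted p = 0.372), while that of Pdk4, with an implied length of 3371 bases, was 0.66 (edgeR adjusted p = 0.202).

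Ratios within each library, chosen after the values were seen and not tested, put the paired subunits side by side. In TPM, Pdhb stood to Pdha1 at 1.99 and 2.47 in WT and at 2.51, 2.60 and 2.86 in db/db. With the length trend removed, these ratios were 2.21 and 2.47 in WT and 2.52, 2.55 and 2.61 in db/db, still without overlap. Mpc2 stood to Mpc1 at 0.621 and 0.719 in WT and at 0.844, 0.736 and 0.903 in db/db, and the db/db female 2 lay close to the WT male. The phosphatase ratio of Pdp2 to Pdp1 was 0.735 and 0.465 in WT and 0.956, 0.711 and 0.785 in db/db, with overlap. With the length trend removed, it was 0.710 and 0.465 in WT and 0.956, 0.725 and 0.798 in db/db, without overlap but with db/db female 2 close to the WT female.

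Male and female libraries were compared with genotype held in the model, over 3 female and 2 male libraries. No member was called between males and females, 0 of 10 against 176 of 12540 genes (1.4%), and DESeq2, which called 2.3% of genes, called 0 but gave no adjusted p for Pdk3, Pdp1 and Pdp2. By edgeR 1 member, Pdp2, had an unadjusted p under 0.05, beside 14.9% of all genes, lower in males by a log2 fold change of -0.31 (edgeR adjusted p = 0.334), and by DESeq2 none did. The test of whether the genotype difference depended on sex called 0 of 10 members, against 1.16% of all genes, with 0 at an unadjusted p under 0.05, beside 9.87% of all genes, and 0 by DESeq2, which called 0.0319%. For Pdk4 this interaction was 0.19 on the log2 scale, with a 95% interval of -0.49 to 0.86 (edgeR adjusted p = 0.940). The interaction model had 1 residual degree of freedom, from the pair of db/db females. With no filter on low counts, the 95% interval of the Pdk4 interaction was far wider, from -2.89 to 3.23. The size of this interaction was therefore not resolved with these libraries.

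The genes around the complex were read through lists of 92 genes, of which 90 were tested and 1 was called, Cebpb. These lists were chosen with earlier results of these data known, so counts over them are description only. Among 13 known regulators of Pdk4 transcription, 1 rose, 0 fell and 12 did not pass; 10 of 13 had a positive log2 fold change, with a median of 0.15. Under library totals 5 of 13 were positive, with a median of -0.03, and under TPM 4 of 13, with a median of -0.11. Cebpb, a leucine-zipper factor known to activate the Pdk4 gene in liver cells of the rat, had 28.0 and 28.7 CPM in WT and 92.2, 99.1 and 82.8 CPM in db/db. All 3 db/db libraries lay far above WT, and the log2 fold change was 1.69 (SE 0.15, edgeR adjusted p = 0.000572), called in 19 of 19 alternatives. The receptor gene Ppara, named after its values were seen, had 46.4 and 33.6 CPM in WT and 45.6, 46.7 and 34.4 CPM in db/db, with overlap. By edgeR, 4 of 13 regulators had an unadjusted p under 0.05, beside 12.9% of all genes: Cebpb, Pparg, Foxo3 and Nr3c1. Pparg had 9.93 and 13.95 CPM in WT and 20.8, 18.9 and 15.8 CPM in db/db (edgeR adjusted p = 0.231). Foxo3 was also higher in db/db without overlap (log2 fold change 0.36). Nr3c1 was lower, at 69.4 and 73.8 CPM in WT and 51.3, 54.6 and 59.4 CPM in db/db (edgeR adjusted p = 0.280).

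Among 15 fatty acid-responsive PPAR targets other than Pdk4, 0 were called by edgeR and 1 by DESeq2, which called 1.92% of all genes, and 11 had an unadjusted p under 0.05, beside 12.9% of all genes. All 15 had a positive log2 fold change, with a median of 0.38 beside -0.00717 for all genes. The list was chosen with earlier results of these data known, so these counts describe its genes and are not a test. With library totals and with TPM, 13 of 15 were positive, with medians of 0.20 and 0.09. Ucp2, a carrier of the mitochondrial inner membrane, had 82.6 and 101 CPM in WT and 149, 128 and 158 CPM in db/db, a log2 fold change of 0.66 (SE 0.15, edgeR adjusted p = 0.0819). Acot1, a thioesterase that releases fatty acids from acyl-CoA, had 14.7 and 9.59 CPM in WT and 20.8, 18.7 and 23.9 CPM in db/db, a log2 fold change of 0.79 (SE 0.21, edgeR adjusted p = 0.132). The groups overlapped for neither gene. With sex as a covariate 6 of the 15 rose, namely Acot1, Acot2, Cpt1b, Fabp3, Plin5 and Ucp2, in a fit that called 6.63% of genes. Named after their values were seen, Angptl4, a secreted inhibitor of lipoprotein lipase, and Ucp3, a mitochondrial uncoupling protein, shared with Pdk4 a db/db female 2 close to WT. Angptl4 had 3.89 and 10.8 CPM in WT and 28.0, 10.99 and 19.2 CPM in db/db, and Ucp3 had 27.8 and 21.04 CPM in WT and 47.0, 27.2 and 44.7 CPM in db/db. Not all of the 15 shared this. Slc25a20, highest in db/db female 2, had 146 and 175 CPM in WT and 223, 233 and 195 CPM in db/db. Cpt1b had 739 and 781 CPM in WT and 936, 967 and 1068 CPM in db/db.

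**Figure D5:**
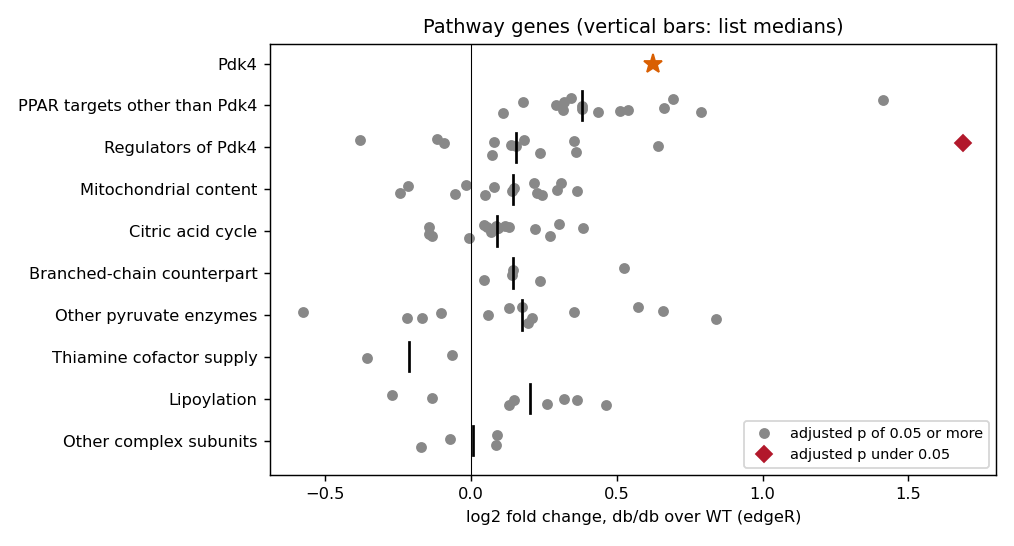
Log2 fold change of db/db over WT (edgeR) for each tested gene of the lists around the complex, 1 row per list, with the list median as a vertical bar, the called gene as a red diamond, other genes as grey points, and Pdk4 as a star in the top row. The 15 PPAR targets lay above 0 with a median of 0.38, and Cebpb was the 1 called gene.

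The remaining core of the complex showed no called gene. Of the other subunits and partners, Dlat (the E2 acetyltransferase), Dld (the E3 dehydrogenase), Pdhx (the E3-binding protein) and Pdpr (a regulatory subunit of the phosphatase), 0 of 4 were called and 0 had an unadjusted p under 0.05, with a median log2 fold change of 0.01. Dld had 235 and 246 CPM in WT and 250.3, 296 and 221 CPM in db/db, and Pdpr had 71.3 and 63.4 CPM in WT and 58.8, 71.7 and 48.7 CPM in db/db. Among other sources and fates of pyruvate, 0 of 13 tested genes were called by edgeR and 1 by DESeq2, which called 1.92% of all genes. By edgeR, 3 had an unadjusted p under 0.05, beside 12.9% of all genes. Gpt, alanine aminotransferase, had 40.0 and 42.0 CPM in WT and 53.4, 68.2 and 72.8 CPM in db/db, a log2 fold change of 0.66 (SE 0.16, edgeR adjusted p = 0.102). Ldha, the muscle-type lactate dehydrogenase subunit, had 762 and 1022 CPM in WT and 1156, 1352 and 1477 CPM in db/db, a log2 fold change of 0.57 (SE 0.18, edgeR adjusted p = 0.221). Gpt, Ldha and Pkm passed with sex as a covariate, in a fit that called 6.63% of genes. The median of the 13 was 0.18, and turned to -0.01 with library totals and to -0.12 with TPM.

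In the citric acid cycle 0 of 16 genes were called, 12 had a positive log2 fold change and the median was 0.09. Sdhb, a subunit of succinate dehydrogenase, had the smallest p, at 0.38 (SE 0.17, edgeR adjusted p = 0.373), followed by Suclg1 of succinyl-CoA ligase at 0.30 (edgeR adjusted p = 0.442). Of 14 genes taken as a measure of mitochondrial content, 0 were called, 10 were positive and the median was 0.14, with the smallest p for Vdac3, a channel of the outer membrane, at 0.31 (edgeR adjusted p = 0.399) and the prohibitin Phb at 0.36 (edgeR adjusted p = 0.402). These medians also turned negative under library totals and TPM, to -0.09 and -0.20 for the cycle and to -0.04 and -0.14 for mitochondrial content. The median of all genes was -0.19 under library totals, -0.24 under TPM, and -0.15 and -0.17 under FPKM with a pseudocount of 1 and of 0.1.

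Markers of heart cells were present in all libraries. The summed level of 8 cardiomyocyte markers was 81433 to 88511 CPM in WT and 95741 to 117655 CPM in db/db. Of these, Myh6, Tnnt2, Tnni3 and Myl2 were higher in db/db without overlap, whereas Actc1, Ryr2, Myl3 and Pln overlapped between groups. Actc1 had 16171 and 17948 CPM in WT and 16787, 16695 and 16449 CPM in db/db. The 4 atrial markers summed to 405 to 503 CPM in WT and 246 to 364 CPM in db/db. Nearly all of the atrial sum was Nppa, at 401 and 497 CPM in WT and 309, 241 and 349.6 CPM in db/db. The other atrial markers, Myl7, Myl4 and Sln, were highest in the db/db male, with 38, 55 and 12 counts beside 2 to 8, 33 to 44 and 0 in the other libraries. In whole-heart RNA, fewer cells of a type and less RNA per cell cannot be told apart. In summed CPM, the groups overlapped for fibroblast, endothelial, smooth muscle, macrophage, skeletal muscle and erythroid markers. Single genes of these lists overlapped too, except that Adgre1 and Kdr were lower and Cd68 and Myh11 higher in db/db. The macrophage genes Adgre1 and Cd68 thus moved in opposite directions. Adgre1 had 8.37 and 6.76 CPM in WT and 2.55, 5.59 and 3.10 CPM in db/db. Cd68 had 10.6 and 12.4 CPM in WT and 15.7, 14.9 and 14.2 CPM in db/db. Erythroid markers were lowest in the WT female, at 2538 CPM beside 5030.2 to 7217 CPM in the other libraries, and skeletal muscle markers were highest in the db/db male, at 18.0 CPM beside 2.75 to 8.39 CPM. The 4 liver markers in the table were near 0, summing to 0.876 to 1.64 CPM in WT and 2.16 to 4.18 CPM in db/db. White adipocyte markers summed to 0.545 to 4.09 CPM in WT and 1.63 to 2.83 CPM in db/db, with Lep, Retn and Plin1 at no more than 3 counts in each library, and 4 brown adipocyte markers, of which heart also expresses Cidea and Cox8b, summed to 1137 to 1451 and 1440 to 2117 CPM. No gene of these lists was called. The part of these marker differences in the values of Pdk4, Pdhb and Mpc2 was not tested.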

How the data were processed

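Heart RNA of 2 WT and 3 db/db libraries was compared. HISAT, Bowtie2 and DESeq2 appear without version or role in the submitters' processing notes, with the build GRCm38.p6. Strand use and the counting program are not given in the sources used here. Per the file headers, the authors deposited estimated counts, FPKM and TPM per library, and 1 log2 fold change, p-value and q-value per gene of their own. The deposited estimated (expected) counts were not normalized, 91.4% were exactly whole, and they were rounded here. The deposited FPKM and TPM values are scaled by the authors for length and library size. 1 line with no gene ID was dropped.

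edgeR 4.0.16 in R 4.3.3 tested 12540 genes past its low-count filter (TMM, robust quasi-likelihood fit, genotype alone, 3 residual degrees of freedom). Sex was added as a covariate, and then its interaction. Make-up was tested by exact permutation over 10 splits. Alternatives used DESeq2 1.42.0, limma 3.58.1 (voom, or log2 of FPKM + 1, FPKM + 0.1 or TPM + 1, for genes above 1 in 2 samples), RLE factors, library totals, no filter, the title number as a replicate block, females alone, a length offset (loess, span 0.3) and leaving out libraries. With 1 WT library left, it was assumed to vary like db/db. Of 10 members 9 had a promoter in the RefSeq table (not Pdp1). The tests were tried on simulated data.

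The members and lists were chosen with earlier results of these data known. Named were all members, Lepr, and per list the called genes or else the 2 with the smallest p; other names were chosen after their values were seen. Some genes of the lists are not reported here and were left out of the list counts.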

Additional observations from a re-analysis of the deposited data

How the results depend on the processing

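No member passed in the fit of genotype alone. 1 passed in females alone (Mpc2), and 0 to 1 passed on leaving out each library, the 1 being Pdk4 without db/db female 2. Of the 90 tested genes around the complex, 1 passed, but 3 with DESeq2 (a fit that called 1.92% of all genes), 4 with no filter (1.56%), 13 with sex as a covariate (6.63%), 17 among the females alone (7.67%), 9 with the length offset and sex (3.5%), 5 without the db/db male and the WT female together (3.38%) and 1 to 3 on leaving out each library. With the replicate block on the title number, 1 passed. The deviations of same-numbered libraries from their group mean correlated at 0.1, -0.183 and -0.13. With 2 WT libraries, the deviations of the WT female and the WT male are mirror images. These values therefore cannot show whether the numbers pair the libraries. The block called 0 members, in a fit that called 0.638% of genes.

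Some members changed sign, and the cause was not tested. Without the db/db male and the WT female together, Pdk1 was 0.0070 and Pdha1 0.078 on the log2 scale. With sex as a covariate Pdk2 was 0.011 and Mpc1 -0.0095. With the length offset and sex they were 0.0062 and -0.26, and with the length offset alone Mpc1 was -0.19. Library totals gave Pdhb -0.0065 and Mpc1 -0.17, FPKM gave -0.011 and -0.18 with either pseudocount, and log2(TPM + 1) gave -0.11 and -0.28 and Pdp2 -0.036. Leaving out each library gave -0.20 to -0.013 for Pdk1, -0.34 to -0.09 for Pdp1, 0.13 to 0.24 for Pdhb, 0.19 to 0.44 for Mpc2, -0.11 to 0.063 for Pdk2, -0.20 to 0.041 for Pdha1, -0.12 to 0.076 for Mpc1, -1.30 to 4.16 for the db/db minus WT difference in kinases over phosphatases and -0.013 to 0.33 for that in kinases over Pdha1. Pdk3 and Pdp1, both lower in db/db, and Pdk4 and Mpc2, both higher, kept their direction in 19 of 19 alternatives. The Pdk4 share difference kept its direction in 7 of 7, from 2.02 to 5.24 points.

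With 2 WT libraries, the exact permutation test cannot go below 0.1. Pdk3 rested on 8 to 35 counts per library, and its spread relative to the mean was 39.6% in db/db. The part of depth in that spread was not tested. The interaction was not refitted without single libraries, since no residual degree of freedom or an empty cell would remain.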

Other observations

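The cofactors of the complex were read through 2 lists. Among 8 genes of lipoylation, which attaches the lipoyl arm to the E2 subunit, 0 were called, 6 were positive and the median log2 fold change was 0.20; it was 0.02 with library totals, where 4 were positive, 0.06 with the length offset, and -0.08 with TPM, where 3 were positive. Ndufab1, the mitochondrial acyl carrier protein, had 564 and 703 CPM in WT and 789.9, 839 and 817 CPM in db/db, a log2 fold change of 0.36 (edgeR adjusted p = 0.364). Mcat, a malonyl transferase of mitochondrial fatty acid synthesis, had 32.9 and 38.3 CPM in WT and 37.8, 49.4 and 60.3 CPM in db/db, a log2 fold change of 0.47 (edgeR adjusted p = 0.346). Of 2 tested genes of thiamine supply, the cofactor of E1, 0 were called by edgeR and 0 by DESeq2, and 0 had an unadjusted p under 0.05. The thiamine transporter Slc19a2 had 7.40 and 5.01 CPM in WT and 6.02, 3.73 and 4.86 CPM in db/db, with overlap, a log2 fold change of -0.36 (edgeR adjusted p = 0.628).

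The branched-chain ketoacid dehydrogenase is a relative of the complex with a kinase and a phosphatase of its own. Of its 5 genes 0 were called by edgeR and 0 by DESeq2, and 1 had an unadjusted p under 0.05. All 5 were positive, with a median log2 fold change of 0.14 that turned to -0.04 with library totals. Bckdha, its E1 alpha subunit, had 437 and 620.5 CPM in WT and 714, 699.7 and 871 CPM in db/db, a log2 fold change of 0.53 (edgeR adjusted p = 0.273). Its kinase Bckdk had 129.7 and 146 CPM in WT and 152, 159 and 175 CPM in db/db, a log2 fold change of 0.24 (edgeR adjusted p = 0.493).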
